A study of Homo sapiens with 12 samples.

Results

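RYR2, PCDH9, MGAT3, CDYL2 and MAP9 are 5 genes of unrelated families that were put together because their transcripts were low in scramble cells, intermediate in mCherry cells and highest in CR3 cells. They are 5 of the 63677 gene identifiers in the deposited table and 5 of the 15382 genes that were tested. Each had at least 10 reads in all 3 CR3 libraries, which alone was enough to pass the filter on low values. The genes were chosen by their levels in scramble, mCherry and CR3, so comparisons among those 3 genotypes are described here for the 5 genes without a p-value, interval from the fit or call.

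PolyA RNA was sequenced from 12 libraries of HCT116, an established human colorectal cancer line, with 3 libraries for each of the genotypes mCherry, CR3, scramble and reverse. CR3 is a peptide that the series title describes as perturbing condensates, which are membraneless assemblies of protein and RNA, and mCherry is a fluorescent protein labelled as the control. Scramble and reverse are named as further genotypes, and the sources used here do not give what they encode. All 4 genotypes were grown in DMEM with 10% serum and received doxycycline, for which the labels state 1 ug/ul and a lead of 48 without a time unit, so no library shows cells without the drug. The submitters describe the cells as clones, so genotype and clone cannot be told apart, and nothing states that the 3 libraries of a genotype came from separate cultures. If they did not, the p-values measure technical spread only.

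Library totals ran from 17431475 to 23566030 reads. Of 14 markers of colon epithelium, 13 or 14 had reads in every group. Their sums were lowest in CR3, at 50580 to 58720 normalized reads. They were 61370 to 69750 in mCherry, 64110 to 67420 in scramble and 61340 to 65940 in reverse. EPCAM and the keratins KRT8, KRT18 and KRT19 carried most of these sums, whereas CDX1 was at 0 in all CR3 and scramble libraries. VIL1, LGALS4 and CEACAM5 averaged at most 2.94, 4.32 and 6.13.

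Levels are given in normalized reads, which are the authors' read counts per gene over the size factor of the library. Values of 1 or more were deposited without their decimal mark. Each value is still a whole number of reads, so the lost power of 10 was restored with the other libraries of the same genotype as a guide. Where a second reading of a value exists that bears on a result, it is given beside that result.

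RYR2 encodes a ryanodine receptor, the channel that releases calcium from the endoplasmic reticulum and is best known from heart muscle. PCDH9 encodes a non-clustered protocadherin, a calcium-dependent adhesion protein known mainly from the nervous system. MGAT3 adds the bisecting N-acetylglucosamine to N-glycans in the Golgi. CDYL2 is a chromodomain protein of the CDY family, whose chromodomains bind methylated lysines of histone H3. MAP9 is a microtubule-associated protein of the mitotic spindle.

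Because these genes were chosen for a shared pattern, the bases before their start sites are shown for the members found in the RefSeq promoter table (GRCh38.p14), which were RYR2, PCDH9 and MAP9. MGAT3 and CDYL2 are named only. Each sequence reads 5′ to 3′ on the gene's strand and was limited to the bases upstream of the start in both RefSeq and GENCODE. Capitals mark matches, on either strand, to the GC box GGGCGG, the E-box CACGTG and the CCAAT box CCAAT.
RYR2, chr1:237041934-237042183, plus strand: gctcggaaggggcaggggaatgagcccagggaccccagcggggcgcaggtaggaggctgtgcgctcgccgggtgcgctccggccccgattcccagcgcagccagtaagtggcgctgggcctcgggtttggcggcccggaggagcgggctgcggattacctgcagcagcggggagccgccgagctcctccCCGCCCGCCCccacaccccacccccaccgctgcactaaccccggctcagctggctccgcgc
PCDH9, chr13:67230446-67230586, minus strand: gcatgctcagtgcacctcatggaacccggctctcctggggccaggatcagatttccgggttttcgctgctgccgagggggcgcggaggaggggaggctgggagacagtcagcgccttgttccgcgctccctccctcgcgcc
MAP9, chr4:155376971-155377215, minus strand: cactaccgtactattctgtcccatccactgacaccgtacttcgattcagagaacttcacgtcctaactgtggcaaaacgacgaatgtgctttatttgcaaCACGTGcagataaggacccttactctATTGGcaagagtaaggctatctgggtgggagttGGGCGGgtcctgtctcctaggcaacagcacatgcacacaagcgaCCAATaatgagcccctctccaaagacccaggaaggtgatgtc

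None of the motifs searched was present in all 3 windows. The 250 bases of RYR2 held 2 overlapping GC box matches, as a window of 250 bases does at least once in 42.6% of 35116 RefSeq promoters. The 245 bases of MAP9 held 1 GC box, 1 E-box and 2 CCAAT boxes, which occur in 42.1%, 6.19% and 31.7% of windows of that length. The 141 bases of PCDH9 held none of the 3, where 24.1%, 2.79% and 17.6% of windows of 141 bases hold them. No window held the TATA box TATAAA, the AP-1 site TGACTCA, the CRE TGACGTCA, the TCF/LEF site ATCAAAG or the ETS site CCGGAAGT on either strand. G and C made up 75.2% of the RYR2 bases, 68.1% of the PCDH9 bases and 50.2% of the MAP9 bases. The median over the 35116 promoters was 58.0% for windows of 250 bases, a length at which PCDH9 had 66.8% and MAP9 50.0%.

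RYR2 (ENSG00000198626, chromosome 1, 237042205 to 237833988, GRCh38, plus strand) had no read in any scramble library. Its mCherry libraries held 15.7, 15.1 and 21.3 normalized reads, a mean of 17.4 ± 3.44 (SD, n = 3) from 53 reads. The CR3 libraries held 166, 225 and 216, a mean of 202 ± 31.4 (SD, n = 3). All mCherry libraries therefore lay above all scramble libraries and under all CR3 libraries. The CR3 mean was 11.6-fold the mCherry mean and at least 73.0-fold higher than a scramble floor of 3 reads per library, which the mCherry mean exceeded at least 6.27-fold. The third mCherry value was read as 20 reads, and a reading of 2 reads had odds of 1 to 24.4.

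PCDH9 (ENSG00000184226, chromosome 13, 66302834 to 67230445, minus strand) had 1 read in the first and second scramble libraries (0.959 and 0.935 normalized reads) and 0 in the third. Its mCherry libraries held 20.9, 16.0 and 20.3 normalized reads, a mean of 19.1 ± 2.67 (SD, n = 3). CR3 libraries held 57.9, 79.0 and 68.0, a mean of 68.3 ± 10.5 (SD, n = 3). The 3 genotypes did not overlap, and with a CR3 mean 3.59-fold that of mCherry this step was among the smaller ones. From only 2 scramble reads, mCherry was 30.6-fold higher with an exact 95% counting interval of 8.10 to 259. The first mCherry value (20 reads) could be 10-fold lower, with odds of 1 to 149. The CR3 values could together be 10-fold higher, with odds of 1 to 3250. The second CR3 value (90 reads) could also be 9 reads, at odds no better than that, and a choice made without the genotype labels took 9.

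MGAT3 (ENSG00000128268, chromosome 22, 39457344 to 39492194, plus strand) was read in 1 scramble library only, the third, at 3.51 normalized reads from 4 reads. Its mCherry libraries held 18.8, 22.7 and 9.60 normalized reads, a mean of 17.0 ± 6.73 (SD, n = 3), the widest relative spread in mCherry after MAP9. CR3 libraries held 127, 89.5 and 91.4, a mean of 103 ± 21.2 (SD, n = 3). CR3 stood 6.02-fold above mCherry and mCherry 14.6-fold above scramble, and the libraries of the 3 genotypes did not overlap.

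CDYL2 (ENSG00000166446, chromosome 16, 80597906 to 80804329, minus strand) was the member with the highest mCherry level, at 49.1, 51.3 and 49.1 normalized reads, a mean of 49.8 ± 1.29 (SD, n = 3). CR3 libraries held 197, 159 and 172, a mean of 176 ± 19.5 (SD, n = 3), which is 3.53-fold the mCherry mean. Scramble libraries were read as 3.84, 10.3 and 4.38 normalized reads, a mean of 6.17 ± 3.58 (SD, n = 3), and mCherry then stood 8.08-fold higher. This step rests on the restored decimal marks. If the scramble counts of 4, 11 and 5 reads were instead 40, 110 and 50, the values would be 38.4, 103 and 43.8 and would lie on both sides of mCherry. The model preferred the lower reading by odds of 321 to 460, since 3 counts that are all multiples of 10 are rare, but a choice made without the genotype labels took the higher one.

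MAP9 (ENSG00000164114, chromosome 4, 155342658 to 155376970, minus strand) had no read in scramble and few in mCherry, at 3.13, 9.25 and 5.33 normalized reads, a mean of 5.91 ± 3.10 (SD, n = 3) from 19 reads. CR3 libraries held 106, 118 and 114, a mean of 112 ± 6.12 (SD, n = 3). Its 19.0-fold step from mCherry to CR3 was the highest of the 5. Its step from scramble to mCherry rested on those 19 mCherry reads and was at least 2.13-fold over the floor of 3 reads per library.

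**Figure D1:**
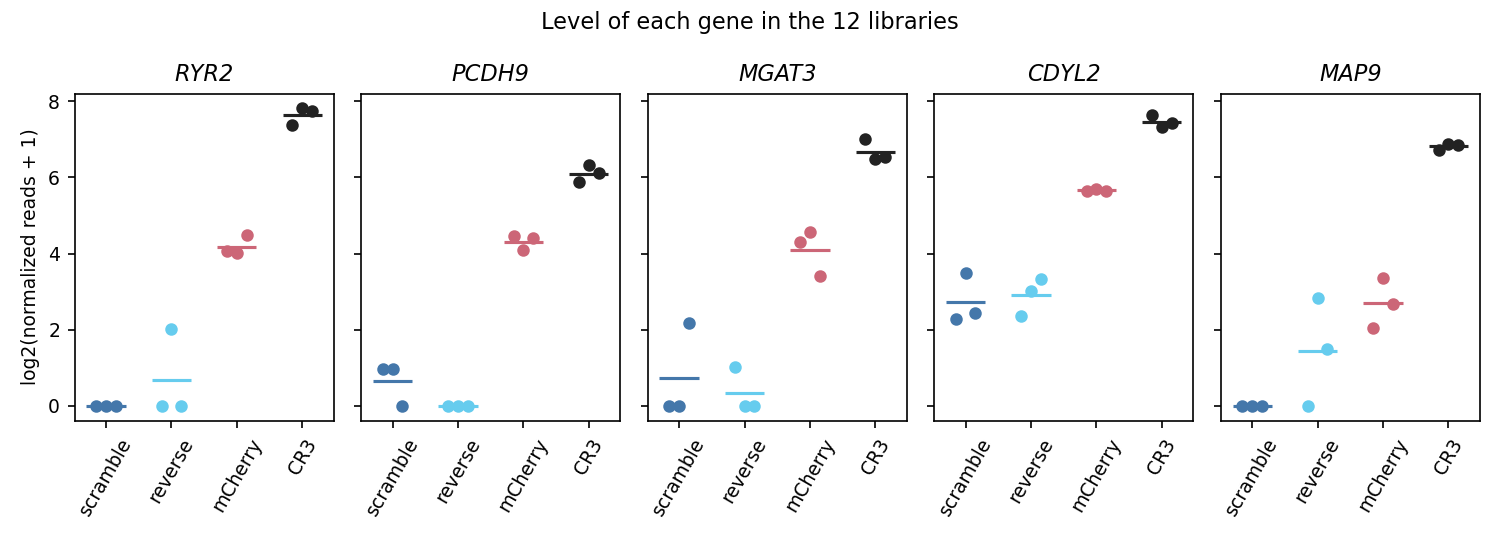
Level of each of the 5 genes on a log2(normalized reads + 1) axis, 1 point per library and a line at the mean of the log2 values of each genotype (n = 3). The 3 CR3 points lie above all others in every panel, and the reverse points lie near or among the scramble points, except that 1 reverse library of MAP9 (6.14 normalized reads) lies within the mCherry range.

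The same order without overlap, scramble under mCherry under CR3, held for 329 of the 15382 tested genes (2.14%), and for 100 of them (0.65%) reverse also lay under mCherry. All 5 genes are among the 329 and 4, without MAP9, among the 100, and nothing is read from this because they were picked for the order. In bulk libraries such as these, a level that differs through the share of expressing cells and one that differs through the RNA per cell cannot be told apart.

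Expressed per kilobase of annotated exon, the CR3 means were 20.6 normalized reads for CDYL2, 18.8 for MGAT3, 12.7 for MAP9, 11.4 for RYR2 and 2.21 for PCDH9. CDYL2 also led in mCherry, with 5.82 per kilobase, ahead of MGAT3 with 3.12. RYR2 (0.978), MAP9 (0.667) and PCDH9 (0.616) followed there within a narrow range. Levels per kilobase assume that all annotated exons are used, and PCDH9 has 30944 exonic bases against 5457 in MGAT3.

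The reverse genotype was not named in the rule that chose the genes, although their working description called them low in the variants, so reverse values may have been seen. Its tests are therefore sizes with intervals and no independent support. Of the 5 genes, 4 were lower in reverse than in mCherry by limma with Benjamini-Hochberg adjustment over all tested genes, where 61 of 15382 genes (0.397%) were lower and 100 (0.65%) differed in either direction. The mCherry side of this comparison was chosen to lie above scramble.

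RYR2 was read in 1 reverse library, the second, at 3.07 normalized reads from 3 reads, and was at 0 in the others. It was lower than in mCherry by a log2 fold change of -3.51 (95% interval -4.41 to -2.61, limma adjusted p = 9.36e-05), and all 3 reverse libraries lay under all 3 mCherry libraries. The ratio of mCherry to reverse was 17.5 with a counting interval of 5.66 to 87.4. PCDH9 had no read in reverse, at least 6.43-fold under mCherry, with a log2 fold change of -4.32 (interval -4.98 to -3.65, limma adjusted p = 2.17e-07). MGAT3 had a single read in the first reverse library, 1.04 normalized reads, and a log2 fold change of -3.75 (interval -4.82 to -2.69, limma adjusted p = 0.000329). It passed the filter on low values only through CR3, so its call among the genes lower in reverse supports nothing. These 3 genes had 4 reads or fewer in reverse and in scramble, and a difference between those genotypes was not detectable at this depth. CR3 stood 314-fold above reverse for MGAT3 (counting interval 55.9 to 12400) and at least 23.0-fold higher for PCDH9.

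CDYL2 was read at 4.17, 7.16 and 8.99 normalized reads in reverse, a mean of 6.77 ± 2.44 (SD, n = 3), and was lower than in mCherry by a log2 fold change of -2.76 (interval -3.40 to -2.12, limma adjusted p = 2.95e-05). The doubt about its decimal marks is greater here than in scramble. Counts of 40, 70 and 100 in place of 4, 7 and 10 would give 41.7, 71.6 and 90.0 normalized reads, and the odds against them were 68.1. With the powers of 10 chosen without genotype labels, the CDYL2 difference became 0.37 with a limma adjusted p of 0.771. The same choice left RYR2 at -2.57 (limma adjusted p = 0.0884) and PCDH9 at -3.37 (0.0599), since it took the third mCherry value of RYR2 as 2 reads and the first of PCDH9 as 2 reads. Over 23 alternative settings the limma adjusted p ran from 1.75e-06 to 0.0884 for RYR2, from 8.99e-08 to 0.0599 for PCDH9 and from 3.23e-06 to 0.771 for CDYL2, and over 22 from 1.35e-05 to 0.00553 for MGAT3. The highest value was that of this choice for RYR2, PCDH9 and CDYL2, and all others of these 4 genes were called.

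**Figure D2:**
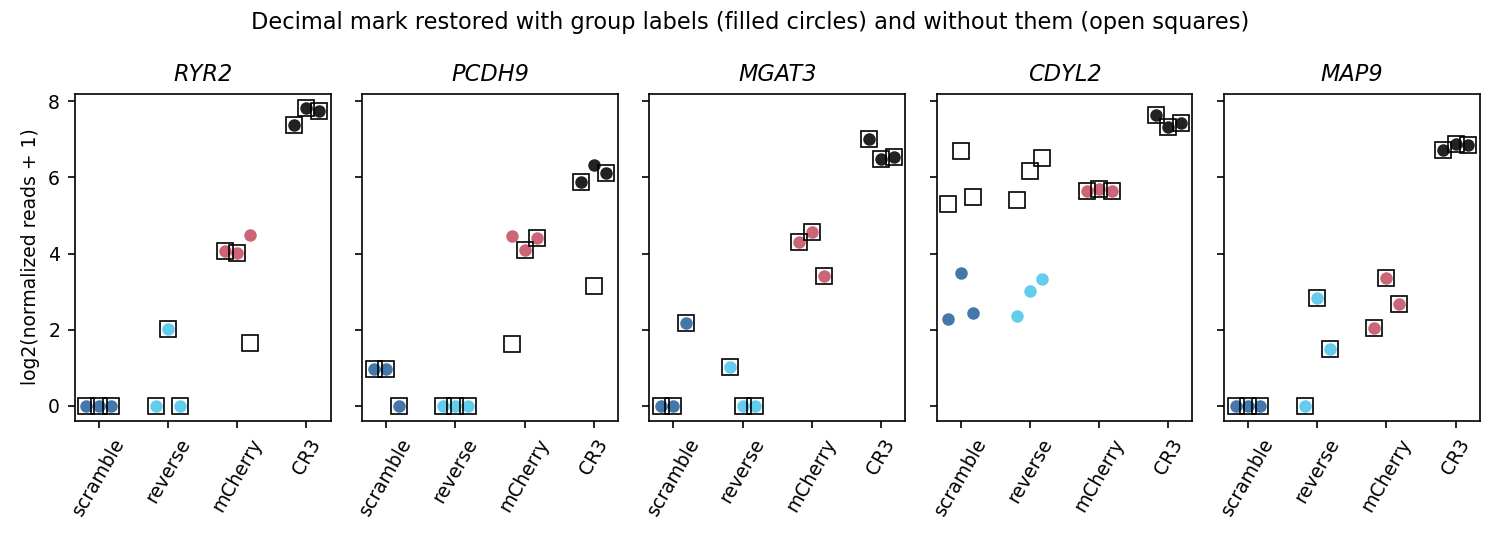
Level of each gene on a log2(normalized reads + 1) axis in every library, with the lost decimal mark restored with the genotype labels (filled circles) and without them (open squares). Circles and squares coincide in all libraries of MGAT3 and MAP9, differ in 1 library of RYR2 and 2 of PCDH9, and differ in all scramble and reverse libraries of CDYL2.

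MAP9 did not follow the other 4, and like MGAT3 it passed the filter on low values only through CR3. Its reverse libraries held 0, 6.14 and 1.80 normalized reads, a mean of 2.65 ± 3.15 (SD, n = 3) from 8 reads, and they overlapped those of mCherry. The log2 fold change against mCherry was -1.25 (interval -2.34 to -0.16), with a limma adjusted p of 0.456 and an unadjusted p of 0.0268. Against scramble, where MAP9 had no read, the log2 fold change was 1.44 (interval 0.35 to 2.53), with a limma adjusted p of 0.554 and an unadjusted p of 0.0125. Without the first reverse library, in which MAP9 was at 0, this difference was 2.16 with a limma adjusted p of 0.0455, the lowest of 22 alternative settings that ran up to 1.0.

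Between reverse and scramble, limma called 0 of the 5 genes at an adjusted p under 0.05 and 1, MAP9, at an unadjusted p under 0.05. Of all tested genes, 71 (0.462%) were called. The log2 fold changes with their 95% intervals were 0.67 (-0.22 to 1.57) for RYR2, -0.64 (-1.31 to 0.03) for PCDH9, -0.38 (-1.45 to 0.69) for MGAT3 and 0.17 (-0.46 to 0.81) for CDYL2. These intervals leave room for differences of over 2-fold in RYR2, PCDH9 and MGAT3, so they do not show that the reverse and scramble levels are alike. The sign for MGAT3 turned to 0.34 without the third scramble library, which held all of its scramble reads.

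**Figure D3:**
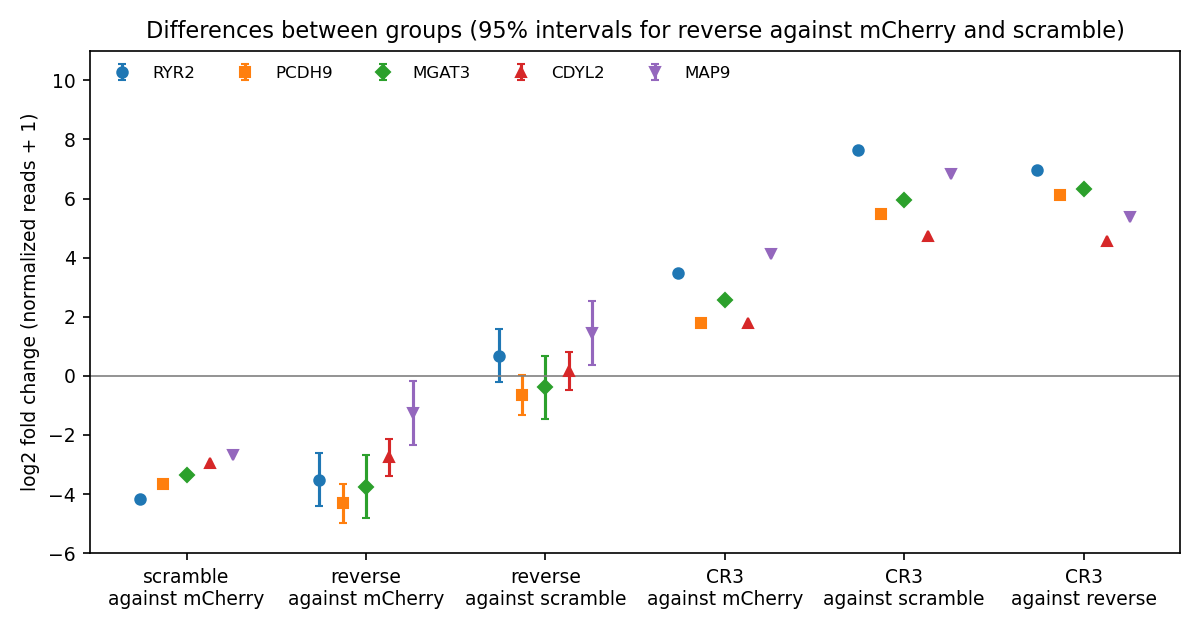
Difference between genotypes for each gene as a log2 fold change on the log2(normalized reads + 1) scale, with 95% intervals from the limma fit for reverse against mCherry and against scramble (n = 3 libraries per genotype) and points alone for the other comparisons. Against mCherry the intervals of reverse lie under 0, and against scramble they span 0 in all genes but MAP9.

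The members' median log2 fold change was -3.51 for reverse against mCherry and 0.17 for reverse against scramble, beside medians of -0.00115 and -0.00219 over all tested genes. For CR3 against mCherry, in which 2168 genes (14.1%) were called higher, the members' median was 2.58 beside 0.00196 over all genes, a difference that the choice of the genes fixed. Across the 12 libraries the log2 levels of the 5 genes correlated pairwise with Pearson r from 0.857 (PCDH9 with MAP9) to 0.974 (PCDH9 with CDYL2). These values follow from the choice of genes and from 4 shared genotypes.

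As a sum, markers of an embryonic kidney line were higher in CR3 than in the other genotypes. The scramble sums lay under those of mCherry, as in the 5 genes, whereas the reverse sums lay within the mCherry range. The summed level of 10 such markers was 1649 to 1892 normalized reads in CR3, 252 to 283 in mCherry, 217 to 243 in scramble and 268 to 275 in reverse. The list had reads for 8 of its 10 genes in CR3, for 7 in mCherry and for 6 in scramble and in reverse. IRS4, an insulin receptor substrate, averaged 550 in CR3 and 4.70 in mCherry, and UCHL1 averaged 494 and 2.54. Means were also higher in CR3 for LIN28B (186 against 4.13), NEFM (148 against 0.35), SALL1 (89.3 against 0.70), SIX2 (77.15 against 8.49) and WT1 (20.4 against 0). LHX1 and NEFL were at 0 in all 12 libraries. PAX2 averaged 239 in CR3 and 246 in mCherry, and it made up most of the sums outside CR3. The mesenchymal list summed to 717 to 945 in mCherry and to 1084 to 1251 in CR3, with a mean CDH2 level of 1.90 and 130. The part of these 2 lists in the CR3 levels of the 5 genes was not tested, nor was the purity of the CR3 cells.

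In CR3 the sums of the heart muscle and neuron lists were not above those of mCherry, although several single neuron markers were. The heart muscle list, of interest for RYR2, summed to 192 to 252 in CR3 and to 221 to 278 in mCherry, and most of it was TNNI3, while NPPA and NPPB were at 0 throughout. The neuron list summed to 2110 to 2314 in CR3 and to 2726 to 2898 in mCherry. Most of this sum was SYT1, which averaged 1670 in CR3 and 2443 in mCherry, and TUBB3 averaged 252 and 335. Markers with a higher mean in CR3 than in mCherry were NEFM (148 against 0.35), INA (74.7 against 1.83), RBFOX3 (10.4 against 0.704), GAP43 (8.35 against 0), STMN2 (8.1 against 0), SYP (52.3 against 41.9) and DCX (7.3 against 5.71). SNAP25 (1.94 against 6.09) and ELAVL3 (1.59 against 1.97) had lower means, and ELAVL4 and NEFL were at 0 in all 12 libraries. The blood list summed to 259 to 278 in CR3, 209 to 246 in mCherry, 199 to 256 in scramble and 324 to 372 in reverse, with PTPRC at 0 in all libraries. The part of these lists in the levels of the 5 genes was not tested.

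For each member, a list of other genes of its pathway or family was set out, and limma calls were counted in it. Beside the counts for CR3 against mCherry stand 14.1% of all tested genes called higher and 14.6% called lower, together 28.7%. In scramble against mCherry 243 genes (1.58%) were called. Scaling by library totals in place of the authors' size factors turned the split of calls in CR3 against mCherry from 2168 higher and 2242 lower to 3563 higher and 1262 lower, so the direction of small differences there depends on the scaling. An unadjusted p under 0.05 was reached by 9.57% of all tested genes in reverse against mCherry, 7.21% in reverse against scramble and 14.6% in scramble against mCherry, beside which the unadjusted counts of the lists stand.

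Among genes of calcium release and storage, of 26 tested CR3 was above mCherry in 7 and under it in 6 (10 and 3 with library totals). CAMK2B, a calcium and calmodulin dependent kinase subunit, rose from 13.6 ± 2.85 to 50.0 ± 6.09 normalized reads (SD, n = 3, log2 fold change 1.82, limma adjusted p = 0.000133). FKBP1B, which binds and stabilizes ryanodine receptors, rose from 128 to 197 (log2 fold change 0.62), and the inositol trisphosphate receptor ITPR1 rose from 612 to 763 (0.32). The most abundant of these receptors, ITPR3, fell from 6977 to 5864 (-0.25), and SRI, which binds ryanodine receptors, fell from 1193 to 998 (-0.26). CACNA1D, a voltage-gated calcium channel, rose from 99.0 to 170 (0.76). In reverse against mCherry limma called 0 of the 26, with 3 at an unadjusted p under 0.05, and in reverse against scramble it called 1, the junctophilin JPH3. It averaged 5.38 normalized reads in reverse, 0.31 in scramble, 0.92 in mCherry and 66.1 in CR3. It passed the filter on low values only through CR3, so its call among the 7 above mCherry supports nothing. This count of 1 was 0 in 10 of 23 alternative settings, among them those without any 1 of the 3 CR3 libraries, without scramble 1 or 3 and without reverse 1 or 2.

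Among non-clustered protocadherins and related cadherins, of 15 tested genes CR3 was above mCherry in 7 and under it in 1 (8 and 1 with library totals). CDHR1 had no read outside CR3 and averaged 122 ± 11.1 there (SD, n = 3), and PCDH10 rose from 2.60 to 114 (log2 fold change 4.99). DCHS1, a large cadherin that pairs with FAT4, rose from 62.6 to 192 (1.61). PCDH7, the most abundant protocadherin of the list, went the other way and fell from 2920 ± 96.2 to 1876 ± 8.69 (SD, n = 3, -0.64, limma adjusted p = 1.79e-08). PCDH7 was also lower in scramble, at 2514 (-0.22, limma adjusted p = 0.0251), whereas in reverse it was at 2661 (-0.13, 0.349). The call in scramble was lost with a replicate block, with only these 2 genotypes in the fit, and without mCherry 1, mCherry 2, scramble 2 or scramble 3. FAT1 and FAT4 did not pass against mCherry (-0.28 and 0.30). The count of 7 fell to 2, 1 and 1 without the first, the second and the third CR3 library in turn. In each case 5 of the 7 (PCDH10, PCDH17, CDHR1, CDH23 and FAT3) were then not tested, as fewer than 3 libraries had the 10 reads that the filter asks for. These 5 passed the filter only through CR3, where they were high, so the count of 7 supports nothing about the family. DCHS1 was called each time, and CELSR1 was called without the first only. In reverse against mCherry limma called 0 of the 15, with 5 at an unadjusted p under 0.05.

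N-glycan processing genes are the enzymes around MGAT3. Of 27 tested, 4 passed as higher and 3 as lower in CR3 against mCherry (10 and 0 with library totals). MGAT4A, which adds another branch to the same glycans, rose from 519 to 700 (log2 fold change 0.44), B4GALT3 rose from 1612 to 1905 (0.24) and MAN1A2 from 3157 to 3530 (0.16). B3GNT8, also among the 4, rose from 1.26 to 13.96. It passed the filter on low values only through CR3, so its call supports nothing. B4GALT2 fell from 1133 to 951 (-0.25), a call that was lost with library totals. The mannosidases MAN1C1 and MAN2A2 did not pass in this comparison (0.28 and 0.18). In reverse and in scramble against mCherry limma called 0 of the 27, with 0 and 1 at an unadjusted p under 0.05.

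Chromodomain and histone H3 lysine methylation genes were listed for CDYL2. Of 31 tested, 1 was higher and 5 were lower in CR3 than in mCherry (6 and 4 with library totals). CDYL, the closest relative of CDYL2 in the list, fell from 1114 ± 8.88 to 940 ± 13.7 normalized reads (SD, n = 3, -0.24, limma adjusted p = 0.00245). The heterochromatin proteins CBX1 and CBX3 fell from 5079 to 3990 (-0.35) and from 6635 to 5053 (-0.39), and the corepressor TRIM28 fell from 15900 to 12930 (-0.30). EZH2, a methyltransferase of histone H3, fell from 1679 to 1394 (-0.27), a call lost with library totals, and CBX7 did not pass (0.20). In reverse and in scramble against mCherry limma called 0 of the 31, with 0 and 4 at an unadjusted p under 0.05.

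Among microtubule-associated genes, of 32 tested 4 passed as higher in CR3 against mCherry and 11 as lower (7 and 9 with library totals). The lower ones included the spindle and mitosis genes PLK1, from 2956 to 2068 (-0.51), NUSAP1, from 2612 to 1747 (-0.58), and TPX2, from 4719 to 3370 (-0.49). STMN1, which destabilizes microtubules, fell from 7143 ± 243 to 4788 ± 160 (SD, n = 3, -0.58, limma adjusted p = 3.02e-08). PRC1 fell from 4275 to 3081 (-0.47) and TACC3 from 2567 to 1921 (-0.42). In reverse and in scramble against mCherry limma called 0 of the 32, with 5 and 7 at an unadjusted p under 0.05.

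**Figure D4:**
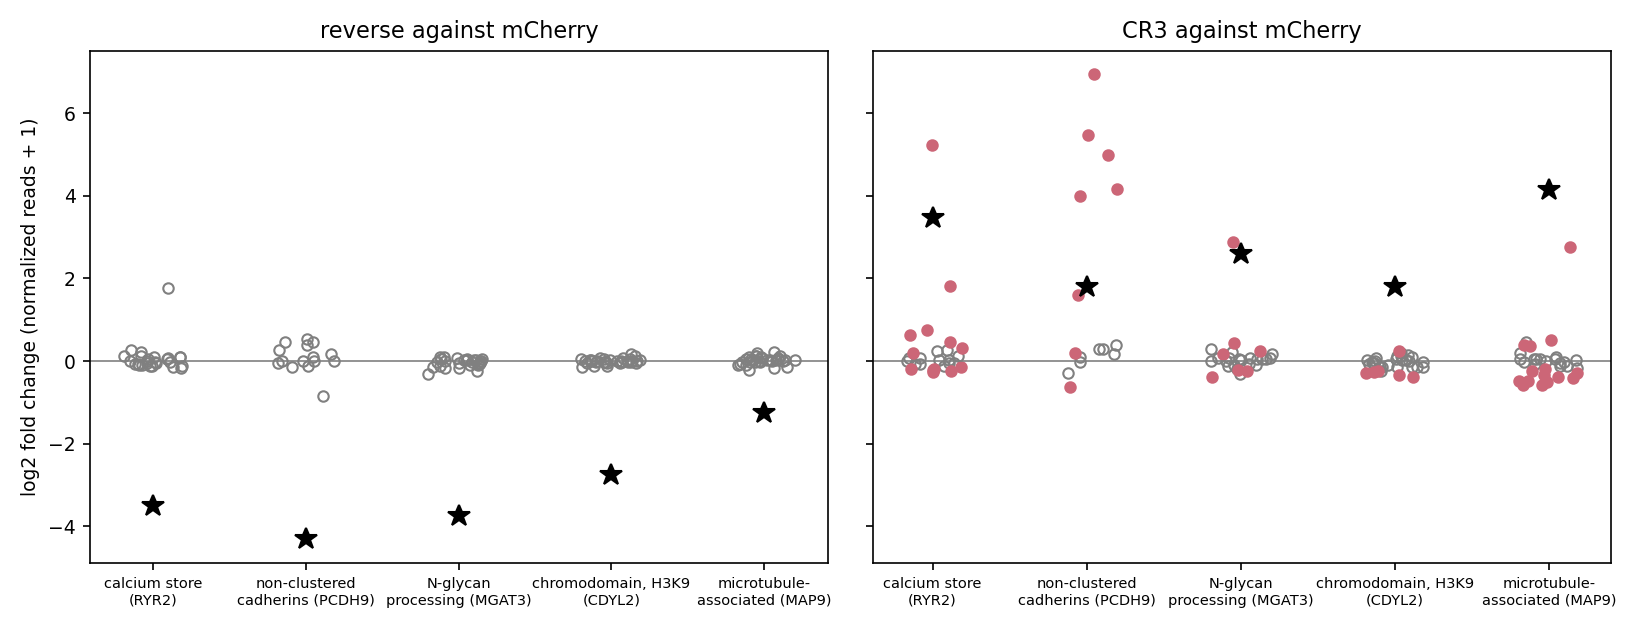
Log2 fold change of every tested gene of the 5 lists for reverse against mCherry and CR3 against mCherry, on the log2(normalized reads + 1) scale, with the member each list was written for as a star. Filled red points passed the limma threshold and open grey points did not. In reverse no listed gene passed, and the 5 members lie under all genes of their own lists.

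The chromosomal neighbours of the members, taken as the 2 nearest tested protein-coding genes on each side, numbered 20. Between reverse and mCherry limma called 1 of them, CHRM3, where 100 of all 15382 tested genes (0.65%) were called. In CR3 against mCherry 10 of the 20 were called higher, 3 lower and 7 were not called, where 14.1% and 14.6% of all tested genes were called higher and lower. CHRM3, FMN2, AL592490.1, MAF, GUCY1A1 and GUCY1B1 passed the filter on low values only through CR3, so this count supports nothing about the neighbourhood. Library totals moved the median log2 fold change of CR3 against mCherry over all genes from 0.00196 to 0.0905. Calls of small differences, such as those of ATF4 (-0.13) and CMC2 (-0.17), may therefore change with the scaling. CHRM3, a muscarinic acetylcholine receptor gene that starts 1550 kilobases beyond RYR2, averaged 3.29 normalized reads in mCherry, 61.2 in CR3, 1.22 in scramble and 0 in reverse, with a log2 fold change of -2.03 in reverse against mCherry (limma adjusted p = 0.00382). FMN2, next in line, averaged 44.5 in CR3 and under 1 elsewhere. On the other side of RYR2, MTR rose modestly in CR3 (log2 fold change 0.26, limma adjusted p = 0.0157), and ACTN2 did not pass (0.37).

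Of the 4 neighbours of CDYL2, 2 were called higher and 2 lower in CR3 than in mCherry, and of the 4 of MAP9, 2 were called higher. MAF, a transcription factor gene 997 kilobases from CDYL2, had no read in mCherry and averaged 32.3 in CR3, and WWOX beyond it rose from 153 to 366 (log2 fold change 1.23). On the other side CMC2 and CENPN fell (-0.17 and -0.33). The soluble guanylate cyclase genes GUCY1A1 and GUCY1B1, 290 and 382 kilobases from MAP9, had no read in mCherry and averaged 13.04 and 60.6 in CR3, while RBM46 and LRAT did not pass (0.12 and -0.21).

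Around MGAT3 the differences were small, with SYNGR1 up from 451 to 701 (0.63), MIEF1 higher (0.13), ATF4 lower (-0.13), and TAB1 did not pass (0.18). PCDH9 lies in a gene-poor stretch, and its nearest tested neighbours lie 4870 to 5730 kilobases away. Of these, AL592490.1 averaged 43.4 in CR3 and had no read elsewhere, and TDRD3, MZT1 and BORA did not pass in CR3 against mCherry. Genes annotated within the members, most of them antisense, had 0 reads or 1 read in total, although the strand setting of the counting is not given in the sources used here.

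**Figure D5:**
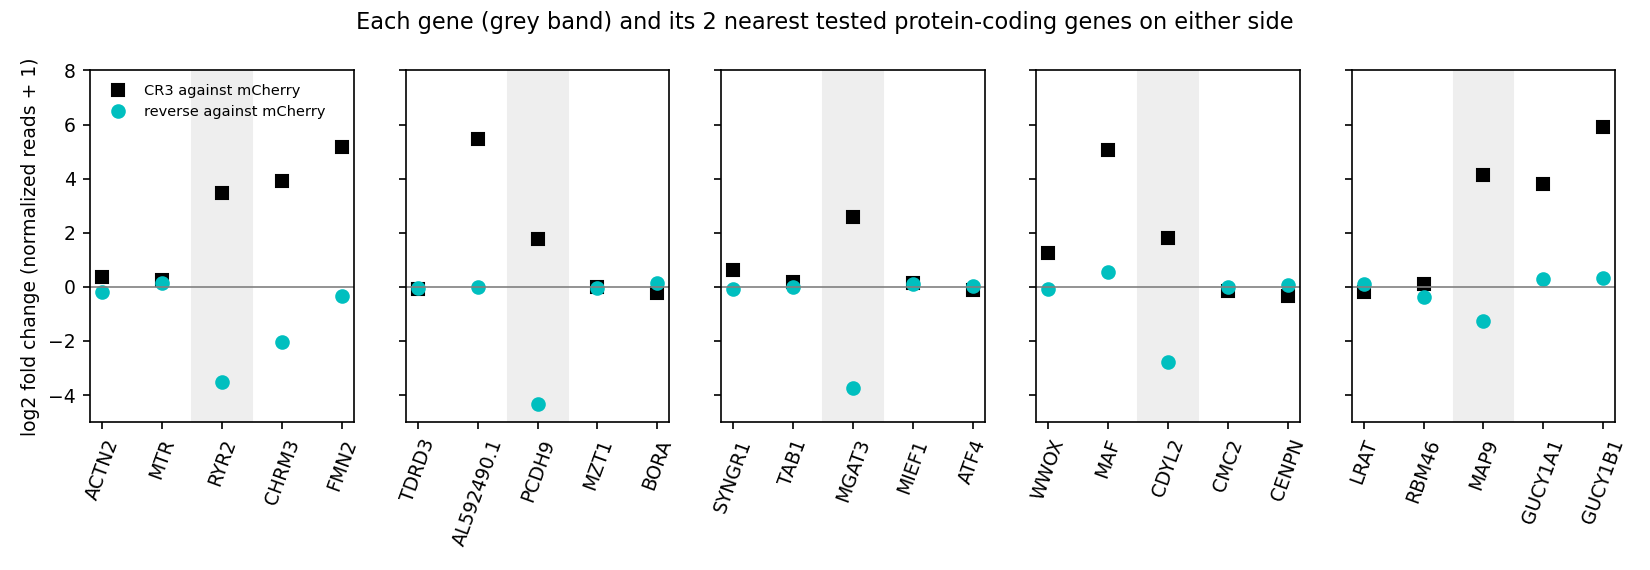
Log2 fold change (log2(normalized reads + 1) scale) of each member (grey band) and the 2 nearest tested protein-coding genes on either side, in order along the chromosome, for CR3 (squares) and reverse (circles) against mCherry. Apart from CHRM3 at -2.03, the reverse points of the neighbours lie between -0.38 and 0.54, above the reverse point of the member in each panel.

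The genes most like the members over the 12 libraries were found by the Pearson correlation of log2(normalized reads + 1) with the mean of the members' standardized profiles, among 12835 tested genes with a symbol and a mean of at least 20 normalized reads. Among the closest were NIPAL3 (r = 0.96), GPM6A (0.96), RAB15 (0.959), CPE (0.955), BEX3 (0.954), HAP1 (0.953), PCED1A (0.951), VAMP5 (0.95) and TSPYL1 (0.949). The 12 libraries fall into 4 genotypes, so these values describe the order of the genotypes. The likeness is in shape and not in size. GPM6A, a neuronal membrane glycoprotein, averaged 118 normalized reads in scramble, 135 in reverse, 214 in mCherry and 252 in CR3. NIPAL3 averaged 917, 922, 1071 and 1239 in the same order.

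Taken singly, PCDH9 was most like GPM6A (0.951), MGAT3 like NIPAL3 (0.955) and CDYL2 like RAB15 (0.965). The next genes were RAB15 and BACE1 for PCDH9, SLC9A9 and APLP2 for MGAT3, and GPM6A and CPE for CDYL2. Among the genes closest to RYR2 were VAMP5 (0.951) and GPM6A (0.946), and among those closest to MAP9 were SEPT6 (0.959) and CDH2 (0.956). CDH2, which is also on the mesenchymal list, had a wide range among them, from 0.31 in scramble to 130 in CR3.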

How the data were processed

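The submitters' processing notes name STAR, Salmon, featureCounts, DESeq2 and edgeR, the quality and trimming tools FastQC, MultiQC and Trim Galore, GATK, and the build GRCh38, with no version, role or strand setting. The deposited values, by their form, are normalized reads: the authors' read counts divided by a size factor, with the decimal mark lost from values of 1 or more. In each of 12 libraries the value of 1 read was found, and all 265152 non-zero values were whole multiples of it (100.0%, tolerance 1e-07). The power of 10 was chosen per gene by a negative binomial likelihood (dispersion 0.03) that keeps libraries of a genotype close, with a prior weight of 0.005 on large differences between genotypes. That weight was set after rebuilt counts had been seen, because 0.15 and 0.03 left fewer triples of multiples of 10 (0 and 1 to 4 genes over 100 reads in each genotype) than the 10.9 to 11.2 chance gives, and 0.005 left 10 to 14. For 1850 values (0.7%) another power was within odds of 20, and genes with one were left out.

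Limma 3.58.1 (R 4.3.3) with a mean-variance trend was fitted to log2(normalized reads + 1) of all 12 libraries with 4 groups, for genes with at least 10 reads in at least 3 libraries. P-values were two-sided, adjusted by Benjamini-Hochberg within a comparison and called under 0.05, and fold changes on this scale understate those of low genes. The script was run on simulated data in which genes had the same level in all genotypes, apart from known changes in reverse. Genes with the order of the members were not simulated, so that run does not cover them. Floors are 3 reads per library, and counting intervals and floors cover counting error only. Symbols and coordinates came from GENCODE release 29. Alternatives were another pseudocount, filter, scaling, choice of powers, a fit on 2 groups, a replicate block and leaving out each library.

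Named were the members, up to 6 genes per list by the moderated F test with a mean of at least 20 normalized reads, 2 neighbours on each side, and the 10 genes most like the members and 3 for each. JPH3 was named after its values were seen, as were PCDH17, CDH23, CELSR1, FAT3, B3GNT8, MAP7D2, MAP1B, MAPRE3 and MAP1A. The members and lists were chosen with earlier results of these data known. Of the genes picked for likeness, 1 is not reported here.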

Additional observations from a re-analysis of the deposited data

How the results depend on the processing

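The number of called genes moved by over 1.5 times in few settings other than leaving out a library. Reverse against scramble went from 71 to 120 genes with only these genotypes in the fit. Scramble against mCherry went from 243 to 153 with a replicate block. Same-numbered libraries had correlations of -0.128 to 0.0656 after removal of the group means, and differently numbered ones of -0.202 to 0.199. No pairing by number was seen, but 3 libraries per genotype are too few to exclude one. With single libraries left out, counts ran from 54 to 144 for reverse against mCherry (100 with all), with 56, 54 and 61 without mCherry 1, mCherry 2 and reverse 1. They ran from 42 to 76 for reverse against scramble, with 42, 44, 43 and 46 without reverse 1, reverse 2, reverse 3 and scramble 3. For scramble against mCherry they ran from 80 to 545, with 97, 80 and 545 without mCherry 1, 2 and 3 and 102, 108 and 89 without scramble 1, 2 and 3. They ran from 2753 (without CR3 3) to 4355 for CR3 against mCherry, from 4250 to 6408 against scramble and from 3561 to 5832 against reverse.

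The counts of called genes in the 5 lists, over 6 comparisons, both directions and all alternatives, were 1380, of which 87 moved by over 1.5 times from the reported count. Of these 87, 16 moved with library totals, 8 with 2 genotypes in the fit, 32 without a CR3 library and 26 without another library. In CR3 against mCherry the 4 higher N-glycan genes became 2 without CR3 3, and the 3 lower ones became 0 without mCherry 2 or CR3 3 and 1 without CR3 2 or with 2 genotypes in the fit. The 1 higher chromodomain gene became 0 without CR3 3 and 2 without mCherry 3 or CR3 2, and the 1 lower protocadherin gene became 2 without mCherry 2 or CR3 2.

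Among the members, CDYL2 reversed to 0.367 in reverse against mCherry and to 0.161 in scramble against mCherry with powers of 10 chosen without labels. In reverse against scramble with single libraries left out, MGAT3 ran from -0.743 to 0.343 (without scramble 3), and CDYL2 from -0.0562 (without scramble 1) to 0.555, with -0.0342 without reverse 3. With prior weights of 0.03 and 0.15, alternatives added after seeing the data, all 12 counts of each member were as reported. A fit on 2 groups drops genes under the filter in both, so MGAT3 and MAP9 have no value there in reverse against mCherry, and no member has one in reverse against scramble. Because the members had 0 to 21 reads per genotype in scramble and reverse, differences between those genotypes are limited by depth.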
